A study of Homo sapiens with 6 samples.

Results

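Heparan and chondroitin sulfate proteoglycans are proteins that carry long, sulfated sugar chains at the cell surface and in the matrix. The genes described here encode their membrane core proteins and the Golgi, secreted and lysosomal enzymes that start, extend, sulfate, edit or cleave the chains. They were matched by gene symbol: syndecans, glypicans, xylosyltransferases, exostosins, sulfotransferases, sulfatases, chondroitin polymerases and heparanase. The rule itself holds no measured value, but it was written with earlier results of these data known. The symbol rule matched 52 of the 21503 genes in the table of estimated counts and 60 of the 60233 genes in the TPM table. Of the 52 genes, 51 were tested. The rule took in every carbohydrate sulfotransferase gene, so 8 of the 60 act on keratan sulfate or other glycans, and 2 glucuronyltransferases make the HNK-1 epitope rather than the proteoglycan linker.

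RNA came from the UMUC3 line, long established from a human bladder carcinoma, which had grown for 14 days in the bladders of C57 nude mice. One group was control UMUC3 and the other was UMUC3 with GANAB knockdown, with 3 libraries in each. GANAB encodes the catalytic subunit of glucosidase II, which trims glucose from new N-glycans in the endoplasmic reticulum. Both groups thus shared the host strain, the site and the time. How GANAB was knocked down, what the control carried and whether the cells were 1 clone is unknown here. Nothing in the labels ties a library to an animal of its own, so the p-values here reflect spread among these libraries alone, and that spread may be technical.

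Proteoglycan chains are built on serine residues of a core protein through a short linker that starts with xylose. The next sugar decides the chain: exostosin-type enzymes begin heparan sulfate, and N-acetylgalactosaminyltransferases begin chondroitin sulfate. Heparan sulfate is then sulfated in clusters that bind growth factors, and the extracellular 6-O-endosulfatases SULF1 and SULF2 remove some of these sulfates. In the urothelium, syndecans and surface glycosaminoglycans are known as part of the barrier of the bladder lining.

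Syndecan-3 and the sulfatase SULF2 were higher in the GANAB knockdown libraries, and no other gene of the group passed the test in either direction. SDC3 rose 2.83-fold and SULF2 rose 9.51-fold. Of 51 members tested, 2 rose and 0 fell (edgeR quasi-likelihood test, adjusted p under 0.05), which is 3.92% against 8.31% of all 19430 genes tested. In the rising direction the background was 4.59% and in the falling direction 3.72%. At an unadjusted p under 0.05, 7 members were higher and 2 lower, 9 of 51, against 26.0% of all genes tested. Other tools counted between 0 and 8 higher and between 0 and 3 lower, of which DESeq2 had 4 and 3, with 17.5% of all genes passing there, and quality-weighted limma-voom had 8 and 2, with 19.1% of all genes. The median log2 fold change was 0.16 over the members and 0.03 over all genes tested.

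Because SDC3 and SULF2 both rose, the sequences before their transcription starts are shown here with that of SDC4, the most abundant member, whose level did not pass the test. They come from RefSeq (GRCh38.p14), read 5′ to 3′ on the minus strand, and exons of the same gene in GENCODE 29 were trimmed off. SDC3 is shown for chr1:30908762-30909008 and SDC4 for chr20:45348425-45348674. SULF2 has 4 RefSeq starts, of which the most upstream (chr20:47786628-47786877) and the one with the most GC boxes (chr20:47785490-47785731) are shown. Which start these cells used is not given in the files. Capitals mark the GC box, GGGCGG on either strand.
SDC3: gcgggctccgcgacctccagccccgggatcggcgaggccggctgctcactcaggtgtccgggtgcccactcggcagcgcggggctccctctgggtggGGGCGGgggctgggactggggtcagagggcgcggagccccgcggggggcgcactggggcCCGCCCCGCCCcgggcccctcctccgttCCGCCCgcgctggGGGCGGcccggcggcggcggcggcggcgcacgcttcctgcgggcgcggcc
SULF2 (most upstream start): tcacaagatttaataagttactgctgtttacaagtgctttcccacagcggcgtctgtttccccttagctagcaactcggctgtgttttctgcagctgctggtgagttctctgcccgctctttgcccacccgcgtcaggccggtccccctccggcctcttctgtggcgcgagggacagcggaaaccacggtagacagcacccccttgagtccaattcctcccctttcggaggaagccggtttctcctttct
SULF2 (start with the most GC boxes): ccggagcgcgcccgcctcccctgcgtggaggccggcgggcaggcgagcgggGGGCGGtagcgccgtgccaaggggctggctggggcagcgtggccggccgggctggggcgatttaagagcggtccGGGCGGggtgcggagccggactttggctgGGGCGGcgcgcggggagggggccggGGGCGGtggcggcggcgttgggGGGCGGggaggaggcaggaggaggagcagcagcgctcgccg
SDC4: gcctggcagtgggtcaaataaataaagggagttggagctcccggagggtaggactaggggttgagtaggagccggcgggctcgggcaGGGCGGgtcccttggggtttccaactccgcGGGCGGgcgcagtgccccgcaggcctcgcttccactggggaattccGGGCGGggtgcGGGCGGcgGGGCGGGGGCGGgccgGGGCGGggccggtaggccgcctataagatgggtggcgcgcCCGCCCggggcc
The stretch before SDC3 held 5 GC boxes in 247 bases, the 2 stretches of SULF2 held 0 and 5, and that of SDC4 held 8. In the 250 bases before the start, 52 of the 67 windows of members held a GC box, 77.6%, against 42.6% of all 35116 windows. The letters TATAAA (either strand) were in 7.46% of member windows and in 10.7% of all. The palindromic E box CACGTG was in 7.46% of member windows and in 6.34% of all. Of the 60 members, 52 had an entry in the promoter table. SDC3 and SDC4 both had GC boxes before the start. SDC3 passed the main test and SDC4 did not. Whether GC boxes bear on the rise of SDC3 or SULF2 was not tested.

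The libraries held 11737837 to 40039584 estimated counts, with the fewest in control library 3. Values below are CPM, counts scaled to library size with TMM factors (counts per 1e6), or, where levels of different genes are compared, TPM. TPM corrects for gene length but carries no TMM factor. On filtered log2(TPM + 1) the median log2 fold change of all genes was 0.233, against 0.033 in the main test. TPM values given for controls against knockdowns therefore include a general upward shift. Where values are given for single libraries, they are in the order of library numbers 1, 2 and 3. GANAB, the targeted gene, stood at 724 ± 88.6 CPM (SD, n = 3) in controls against 233 ± 4.10 CPM in knockdowns (edgeR adjusted p = 0.00239), in the direction of the labels. In control library 1 the mitochondrial ribosomal RNA gene MT-RNR2 held 17.5% of all counts, while the largest gene of any other library held at most 2.02%. The spread was far wider among controls, with a biological coefficient of variation of 52.3% against 10.7% in the knockdown.

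Syndecans are single-pass membrane proteoglycans, and their 4 genes made up most of the TPM of syndecans and glypicans together. SDC4, the broadly expressed syndecan of focal adhesions, had the highest TPM of all members at 202 ± 78.2 in controls against 256 ± 13.2 in knockdowns. It was the one member with a mean over all 6 libraries above 50 TPM. SDC4 had control values of 360, 544 and 394 CPM against knockdown values of 473, 504 and 480 CPM. The knockdown values lay inside the control range, and the log2 fold change of 0.17 (SE 0.179, 95% interval -0.25 to 0.58) did not pass. SDC4 was called higher without control library 2 (log2 fold change 0.371, edgeR adjusted p = 0.0158) and with quality-weighted limma-voom (0.334, adjusted p = 0.0411).

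SDC3 encodes syndecan-3, which is best known from neural tissue and has a long ectodomain. The gene (ENSG00000162512) lies on chromosome 1, 30869467 to 30908761, minus strand, and its exons overlap no other gene in GENCODE 29. SDC3 had control values of 79.2, 77.2 and 83.5 CPM against knockdown values of 232, 223 and 223 CPM. All knockdown libraries were far above all controls, and the controls were close to each other although they spread widely at most other members. The log2 fold change of SDC3 was 1.501 (SE 0.119, edgeR adjusted p = 0.00172). On the TPM scale SDC3 was 17.6 ± 4.24 in controls against 57.1 ± 1.20 in knockdowns. SDC3 passed in each fit that left out 1 of the 6 libraries. With the 3 knockdown libraries summed to 1 it did not pass (edgeR adjusted p = 0.505).

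SDC1, the main syndecan of epithelia, lay the other way without passing. SDC1 had control values of 70.2, 132 and 52.9 CPM against knockdown values of 42.6, 45.7 and 43.4 CPM. The groups did not overlap, but control library 2 was far above the other controls. The log2 fold change of SDC1 was -0.96 (SE 0.315, edgeR adjusted p = 0.104). SDC1 passed as lower without control library 2, without control library 3, with DESeq2 and with quality-weighted limma-voom. SDC2, a syndecan of mesenchymal cells, was low at 1.78 ± 0.522 CPM in controls against 1.11 ± 0.225 CPM in knockdowns, and its groups overlapped.

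**Figure D1:**
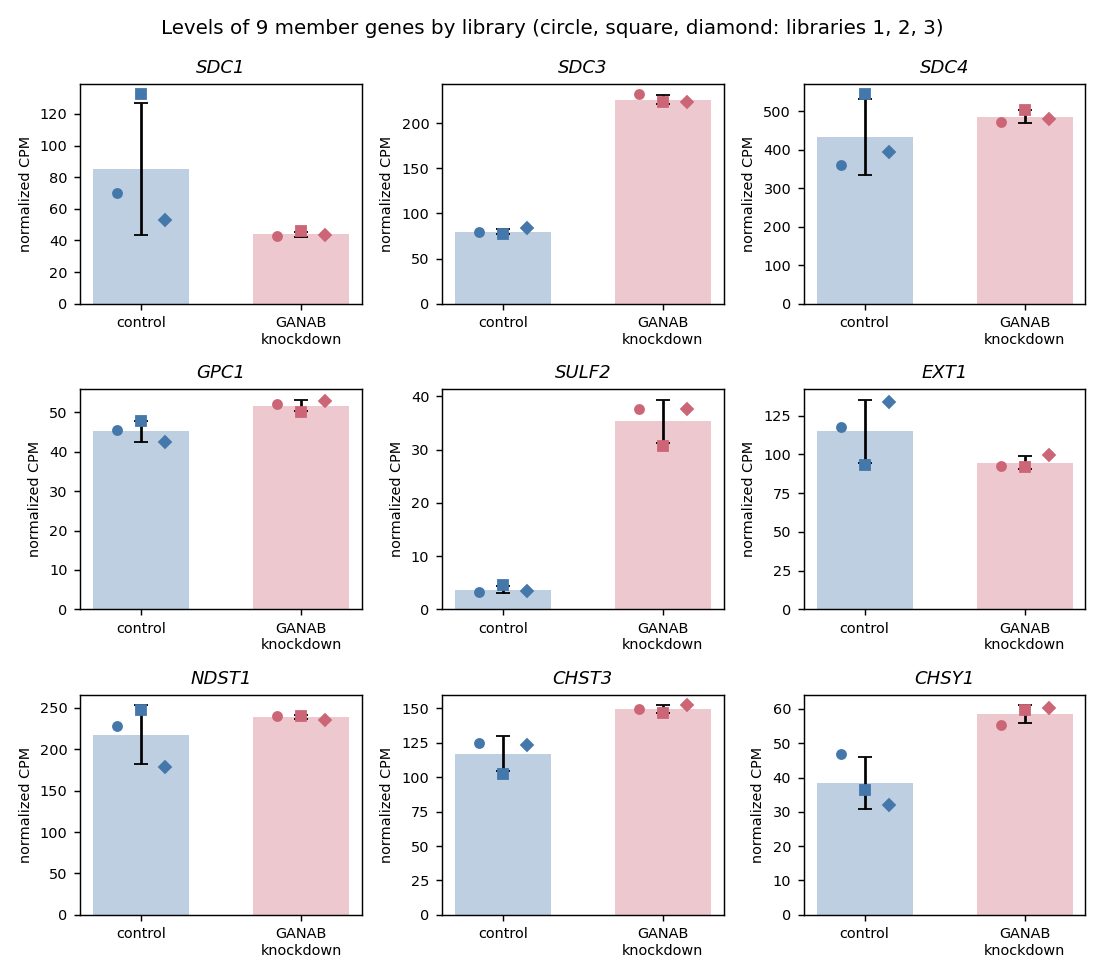
Normalized CPM of 9 members in each library, with bars for the group mean and error bars for the SD of 3 libraries. SDC3 and SULF2 separate fully between control and knockdown, while SDC4, EXT1 and NDST1 do not.

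Within the syndecans, the TPM shares of each of the 4 genes did not overlap between the groups. SDC3 held 8.27%, 5.32% and 8.14% of summed syndecan TPM in control libraries 1, 2 and 3 and 17.9%, 16.5% and 17.2% in knockdown libraries 1, 2 and 3. SDC1 held 13.1% ± 2.19 in controls against 5.66% ± 0.0496 in knockdowns (SD, n = 3). The order of the lesser syndecans thus differed, with SDC1 above SDC3 in every control and below it in every knockdown library. SDC4 held 78.9% ± 0.701 and 77.0% ± 0.754 and was the main syndecan transcript in both groups. Each of these shares had an exact permutation p of 0.1 (2-sided), the smallest that 3 against 3 libraries can give, and an adjusted p of 0.157 over the 11 shares computed, so none passed. By shares of summed CPM, which are not corrected for gene length, the difference (knockdown minus control) was 16.101 percentage points for SDC3 against 9.94 by TPM, and -7.993 for SDC4 against -1.89 by TPM. The SDC2 share overlapped between the groups by CPM (exact permutation p = 0.2).

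**Figure D2:**
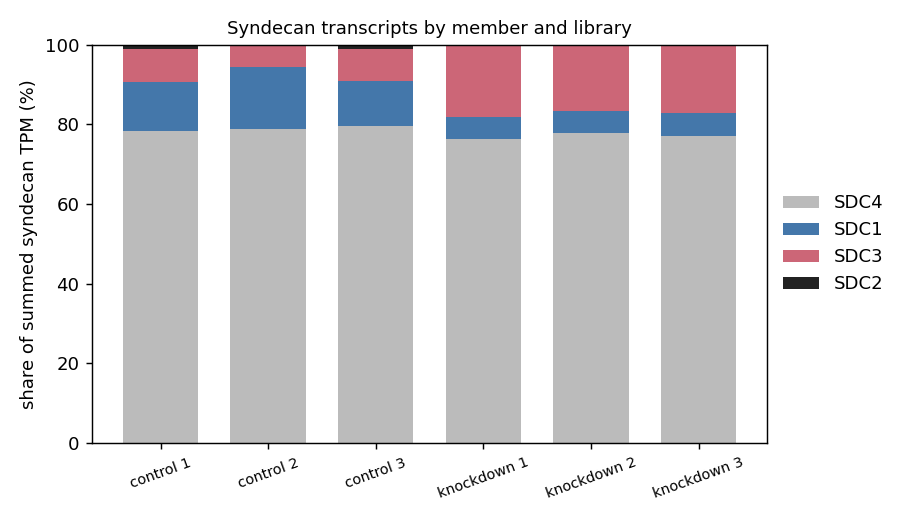
Share of summed syndecan TPM held by each of the 4 syndecan genes in each of the 6 libraries. SDC4 holds 76.2% to 79.6% everywhere, and SDC3 takes 16.5% to 17.9% in knockdown against 5.32% to 8.27% in control libraries.

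Glypicans are core proteins held to the membrane by a lipid anchor. GPC1 was the most abundant at 16.2 ± 3.62 TPM in controls against 20.2 ± 0.110 TPM in knockdowns, and none of the 5 tested glypicans passed. GPC1 had control values of 45.4, 47.8 and 42.5 CPM against knockdown values of 52.1, 50.1 and 53.0 CPM. The groups of GPC1 did not overlap, but the difference was small (log2 fold change 0.19, 95% interval -0.09 to 0.48). GPC3, an oncofetal glypican, had control counts of 46, 0 and 0 against knockdown counts of 240, 171 and 248. Its log2 fold change was 3.10 (SE 1.22, edgeR adjusted p = 0.159), and it passed with limma-voom, with limma on filtered log2 TPM and without control library 1. GPC6 spread among the controls from 8.73 to 33.1 CPM, with the knockdown libraries at 19.9 to 22.9 CPM between them. GPC1 held 68.2% ± 2.69 of glypican TPM in controls against 56.0% ± 1.35 in knockdowns (exact permutation p = 0.1, adjusted p = 0.157). By summed CPM the GPC1 share differed by -2.308 percentage points, against -12.2 by TPM, and the groups overlapped (exact permutation p = 0.9). Glypicans together made up 8.93% ± 2.16 of syndecan and glypican TPM in controls against 9.79% ± 0.279 in knockdowns, with overlapping values.

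The linker enzymes did not pass. B3GAT3, which adds the glucuronic acid that completes the linker, was the most abundant at 39.3 ± 17.9 TPM in controls against 43.2 ± 1.29 TPM in knockdowns. B3GAT3 had control values of 36.3, 60.3 and 36.9 CPM against knockdown values of 42.7, 42.2 and 44.2 CPM. XYLT1 and XYLT2 add the first xylose. XYLT1 had control values of 7.91, 13.9 and 6.83 CPM against knockdown values of 11.3, 13.9 and 9.75 CPM, with a log2 fold change of 0.28 (SE 0.313). Control library 2 was the highest control for all 3 linker genes.

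Of the HNK-1 enzymes, B3GAT1 came close to the threshold. B3GAT1 had control values of 2.87, 6.57 and 1.89 CPM against knockdown values of 12.5, 11.4 and 14.2 CPM. The groups did not overlap, and the log2 fold change was 1.73 (SE 0.441, edgeR adjusted p = 0.0545). B3GAT1 passed in 5 of 18 alternative settings, among them DESeq2, limma-voom and the fit without control library 2. B3GAT2 stayed under 2 CPM in every library, and 34.5% of its exon bases overlap SMAP1 on the opposite strand, so its value is uncertain, the strand setting being unknown here.

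No gene of heparan chain assembly passed. EXT1 and EXT2 form the polymerase, EXTL3 adds the first N-acetylglucosamine, and EXTL2 can also act on the linker. EXT1 had the highest level of these at 49.0 ± 13.1 TPM in controls against 44.5 ± 3.45 TPM in knockdowns. EXT1 had control values of 118, 93.3 and 134 CPM against knockdown values of 92.3, 91.9 and 99.3 CPM, and the groups overlapped. EXTL3 had control values of 75.9, 81.3 and 43.0 CPM against knockdown values of 48.4, 48.8 and 45.8 CPM. Its log2 fold change of -0.49 (SE 0.236, edgeR adjusted p = 0.244) did not pass, and EXTL3 passed as lower without control library 3. On the TPM scale EXTL3 lay slightly the other way, at 13.2 ± 2.21 and 14.8 ± 3.05. The 95% intervals of EXT1, EXT2 and EXTL2 lay inside a 2-fold change either way. EXTL1, of uncertain activity in these cells, was under 2 CPM in all libraries.

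N-sulfation and epimerization prepare the chain for the later sulfates. NDST1, the main N-deacetylase and N-sulfotransferase outside mast cells, was at 39.2 ± 7.47 TPM in controls against 53.1 ± 3.06 TPM in knockdowns. NDST1 had control values of 228, 247 and 178 CPM against knockdown values of 241, 241 and 236 CPM. Its log2 fold change was 0.13 (95% interval -0.23 to 0.49), inside a 2-fold change. NDST1 held 83.3% ± 2.00 of NDST TPM in controls against 79.2% ± 1.07 in knockdowns, but by CPM its share lay 0.495 percentage points higher in knockdowns. GLCE, the epimerase that makes iduronic acid, was at 36.2 ± 4.64 CPM in controls against 39.9 ± 1.99 CPM in knockdowns. NDST2 was at 17.1 ± 1.65 and 19.8 ± 0.870 CPM, but at 7.27 ± 1.25 and 13.9 ± 1.54 on the TPM scale. As 82.9% of NDST2 exon bases lie in AC022400.6, a gene of the same strand, the split of reads and the length used for TPM are uncertain. NDST3, an isoform best known from brain, had control values of 1.58, 0.315 and 3.87 CPM against knockdown values of 0.174, 0.0509 and 0.353 CPM. Its groups overlapped at control library 2, and the log2 fold change of -3.27 (SE 1.06) did not pass with edgeR (adjusted p = 0.1). It passed as lower with DESeq2, with quality-weighted limma-voom and without control library 2. NDST4 was at or below 0.309 TPM in all libraries.

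The O-sulfotransferases add the sulfates that many ligands read. HS2ST1, the single 2-O-sulfotransferase, had control values of 76.8, 46.6 and 79.2 CPM against knockdown values of 57.4, 66.2 and 66.1 CPM, all between the controls. HS6ST1, the 6-O-sulfotransferase at the highest level here, was at 15.3 ± 3.81 CPM in controls against 15.7 ± 2.42 CPM in knockdowns. HS6ST2 and HS6ST3 were below 0.4 TPM throughout. The 3-O-sulfotransferases HS3ST3A1 and HS3ST3B1, with near-identical catalytic domains whose reads may be split by estimate, were at 1.20 ± 0.249 and 2.51 ± 0.525 TPM in control libraries. Neither passed. HS3ST1, which makes the antithrombin-binding site of heparin, had control counts of 6, 0 and 1 against knockdown counts of 26, 37 and 24. Its log2 fold change of 2.67 (SE 1.00, edgeR adjusted p = 0.143) did not pass, and the gene stayed under 1 CPM. The genes HS3ST2, HS3ST4, HS3ST5 and HS3ST6 were listed at no more than 0.167 TPM.

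SULF2 showed the largest rise of the group. The gene (ENSG00000196562) lies on chromosome 20, 47656348 to 47786616, minus strand. SULF2 had control values of 3.24, 4.52 and 3.37 CPM against knockdown values of 37.7, 30.7 and 37.7 CPM. The lowest knockdown library was well above the highest control. The log2 fold change of SULF2 was 3.25 (SE 0.213, edgeR adjusted p = 0.000981). On the TPM scale SULF2 was 1.98 ± 1.08 in controls against 16.0 ± 1.42 in knockdowns. NCOA3, on the opposite strand, shares 1.44% of SULF2 exon bases and was at 132 ± 69.3 CPM in controls against 85.4 ± 2.35 CPM in knockdowns, the other direction. AL354813.1, also on the opposite strand, shares 3.18% of SULF2 exon bases, and its level was not analysed here. SULF2 passed in each fit that left out 1 library. With the knockdown libraries summed to 1 it did not pass (edgeR adjusted p = 0.218).

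SULF1, the other sulfatase, was under 0.8 CPM in every library, so SULF2 held nearly all sulfatase transcripts, 95.1% ± 8.54 of their TPM in controls against 94.4% ± 1.44 in knockdowns. HPSE, the heparanase that cleaves heparan sulfate chains, had control values of 3.83, 6.52 and 2.80 CPM against knockdown values of 2.75, 3.08 and 2.90 CPM, and did not pass.

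Chondroitin chain assembly was led by CHPF, CHPF2, CHSY1 and CSGALNACT2, at means of 10.3 to 20.9 TPM in control libraries. CHSY1, a chondroitin synthase, had control values of 46.9, 36.5 and 31.9 CPM against knockdown values of 55.4, 59.8 and 60.1 CPM. The groups did not overlap, but the log2 fold change of 0.60 (SE 0.169, edgeR adjusted p = 0.0698) missed the threshold. CHSY1 passed with DESeq2, with quality-weighted limma-voom and without control library 1 or 2. CHPF, a partner of the synthase, had control values of 39.2, 83.8 and 30.9 CPM against knockdown values of 44.0, 42.4 and 45.4 CPM. Control library 2 was far above the other controls for CHPF and for CHPF2, which stood at 25.5, 61.7 and 21.8 CPM in controls and at 51.2 to 56.5 CPM in knockdown libraries. CSGALNACT1, which starts chondroitin chains, had 5, 18 and 15 counts in control libraries and was listed at 0 in all knockdown libraries, where 3 counts would be 0.0707 to 0.0764 CPM. It was too low for the filter on counts; it passed as lower without that filter, with DESeq2 and without control library 1. Its relative CSGALNACT2 was at 13.2 ± 5.48 TPM in controls against 17.6 ± 2.91 TPM in knockdowns.

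At the branch between the chain types, EXTL3 held 50.2% ± 12.1 of the TPM of EXTL3, CSGALNACT1 and CSGALNACT2 in controls against 45.7% ± 8.0 in knockdowns, with overlapping values (exact permutation p = 0.7, adjusted p = 0.856).

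Chondroitin sulfotransferases were present for 4-O and 6-O positions, and none of the 7 passed. Leaving out control library 2 called CHST3 and CHST14 higher, leaving out control library 3 called CHST11 higher and CHST15 lower, and quality-weighted limma-voom called CHST11 and CHST14 higher. CHST3, the chondroitin 6-O-sulfotransferase, had the highest level at 19.3 ± 4.11 TPM in controls against 28.6 ± 0.197 TPM in knockdowns. CHST3 had control values of 125, 102 and 124 CPM against knockdown values of 150, 147 and 152 CPM. All knockdown values were above all controls, with a log2 fold change of 0.35 (SE 0.133, edgeR adjusted p = 0.143). CHST11, a 4-O-sulfotransferase, had control values of 51.1, 43.1 and 84.0 CPM against knockdown values of 84.8, 87.0 and 89.9 CPM. Control library 3 came within 1 CPM of the lowest knockdown library. CHST14, the dermatan 4-O-sulfotransferase, and CHST12 overlapped between the groups, as did CHST7 and CHST13. CHST15, which adds a second sulfate to form chondroitin sulfate E, was at 9.31 ± 4.89 CPM in controls against 4.83 ± 0.792 CPM in knockdowns (edgeR adjusted p = 0.204). Genes of 6-O-sulfation held 48.9% ± 5.93 of this family's TPM in controls against 46.1% ± 1.57 in knockdowns, with overlapping values.

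The remaining carbohydrate sulfotransferases lay mostly low. CHST10, which sulfates the HNK-1 epitope, had the highest TPM of them and had control values of 18.5, 24.2 and 23.1 CPM against knockdown values of 24.6, 25.3 and 24.9 CPM. CHST2, a 6-O-sulfotransferase of N-acetylglucosamine, was at 30.7 CPM in control library 2 and at 7.98 to 11.8 CPM in the other 5 libraries. CHST4, of the same family, had control values of 1.43, 6.15 and 1.32 CPM against knockdown values of 1.59, 1.22 and 0.165 CPM, and did not pass (edgeR adjusted p = 0.330). CHST1 had the same shape, with 6.99 CPM in control library 2 and at most 2.63 CPM elsewhere. CHST5, CHST6 and CHST8 were under 2.5 CPM, and the neighbouring copies CHST5 and CHST6 may share reads. CHST9 was listed at no more than 0.0069 TPM.

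**Figure D3:**
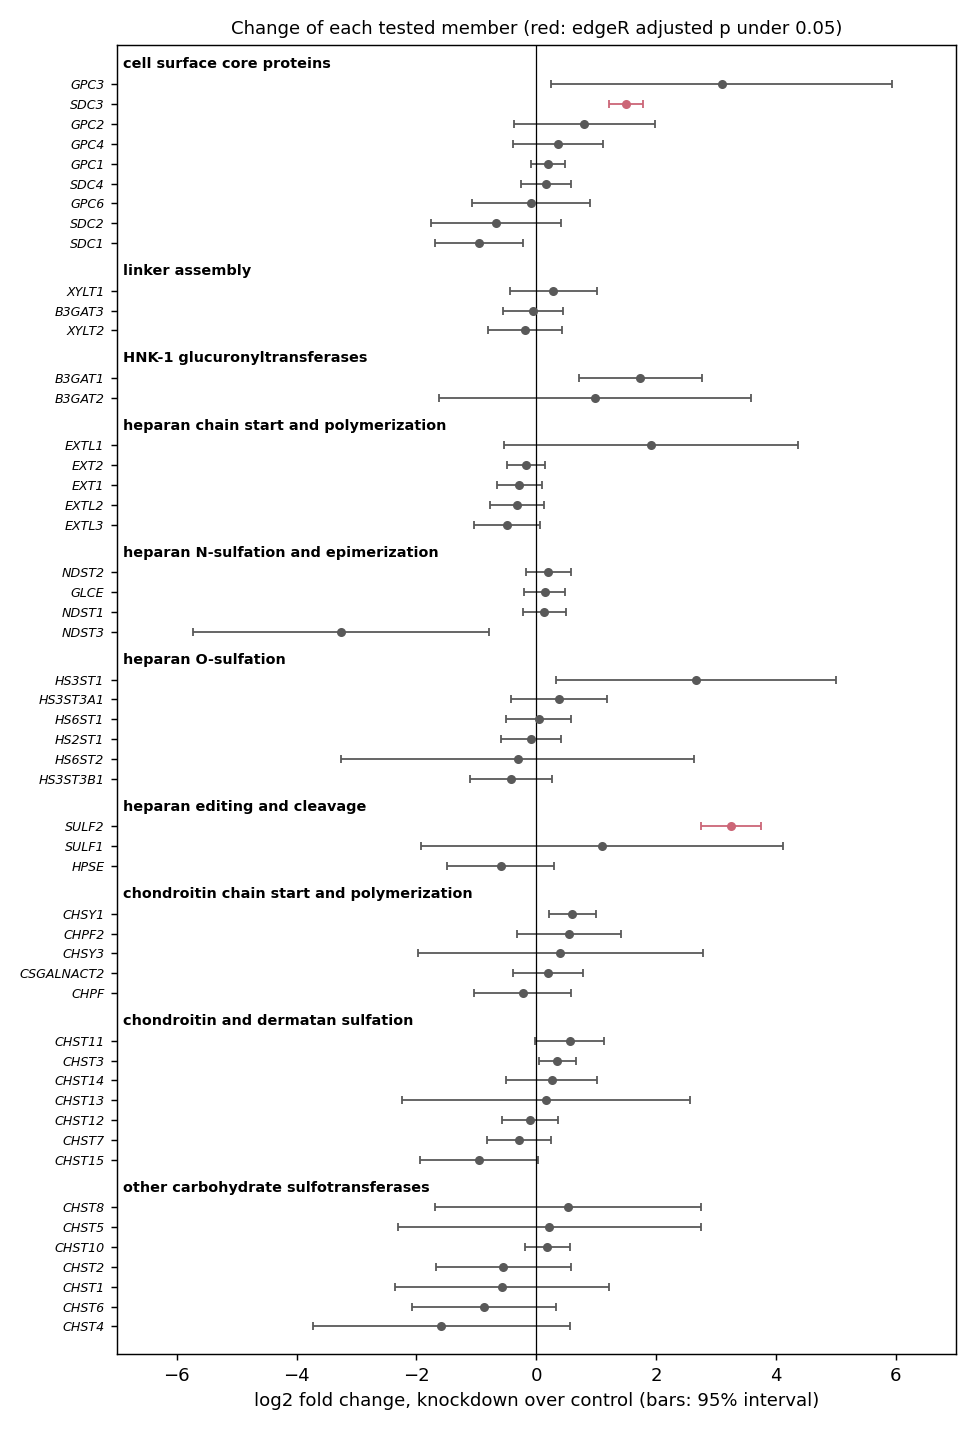
Log2 fold change of knockdown over control for the 51 tested members by role, with 95% intervals. SDC3 (1.501) and SULF2 (3.25) are drawn in red as the 2 members that passed, and most other intervals include 0.

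Precision differed with level. For 18 of 51 members the 95% interval lay inside a 2-fold change either way, against 37.9% of all genes tested. The widest intervals belonged to genes near 0 in controls, such as GPC3, or in both groups, such as SULF1. Control and knockdown values did not overlap for 14 members, 27.5%, of which 12 were higher and 2 (SDC1 and CHST6) lower. Over all genes tested, 37.6% did not overlap, 21.9% higher and 15.7% lower. For 21 members all knockdown values lay within the range of the controls. The share over all genes was not computed, so this count cannot be read as a trait of the members.

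The controls carried most of the spread. Among the 30 members with a mean of at least 10 CPM, the median coefficient of variation was 25.5% in control and 4.41% in knockdown libraries, against 22.6% and 4.75% for all 10051 genes of that level. Control library 2 was the highest control for 28 of 51 members and the lowest for 15. Over all genes tested it was the highest control for 37.8%, and the share for which it was the lowest was not computed. Without control library 2, 9 members were called higher and 5 lower (EXT1, EXTL2, HS2ST1, NDST3 and SDC1), and 27.7% of all genes passed in that fit. Without control library 3, 3 members were higher and 3 lower, with 8.66% of all genes passing. Without control library 1, 4 were higher and 1 lower, with 7.89% of all genes passing.

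**Figure D4:**
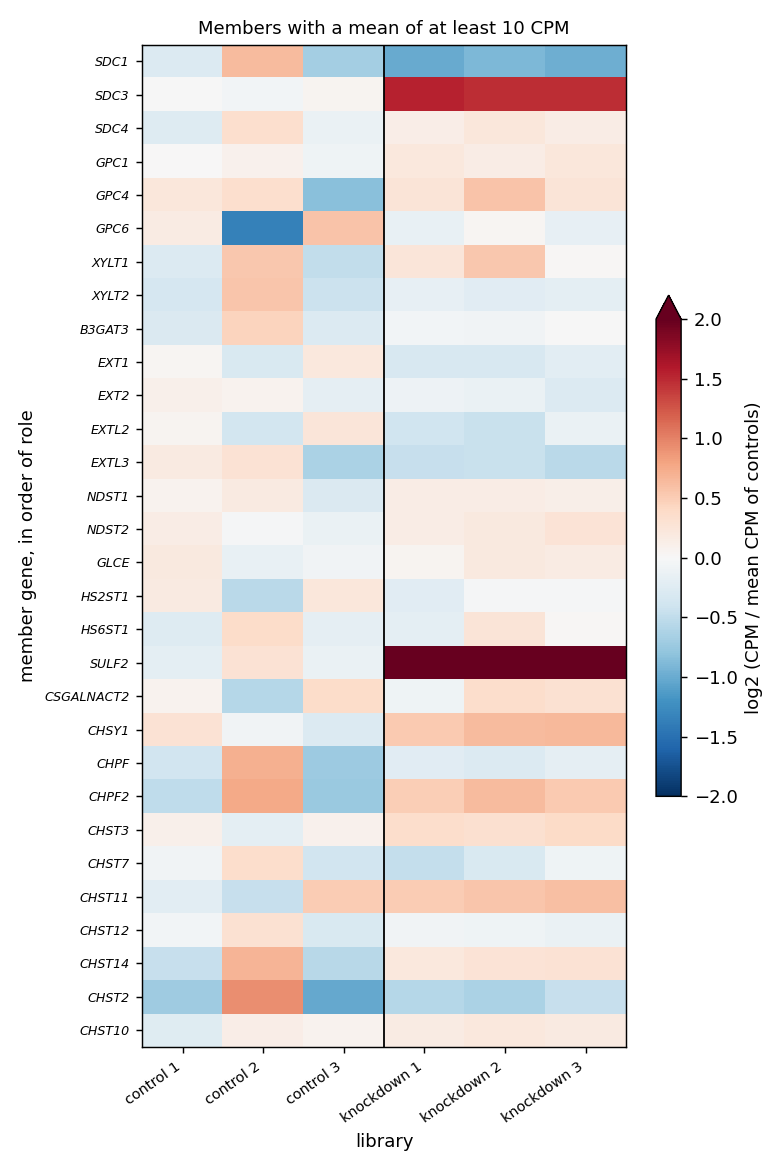
Log2 ratio of each library's CPM to the mean of the 3 controls for the 30 members with a mean of at least 10 CPM, in order of role. SULF2 and SDC3 stand out in all knockdown libraries, and control library 2 differs from the other controls in many rows. The colour scale ends at 2, and SULF2 reaches 3.34.

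Genes of the same pathway outside the symbol rule were counted by list. Over all genes tested, 4.59% rose and 3.72% fell, which is the background for each of these lists. Among 19 tested genes of other core proteins, 2 rose and none fell. HSPG2, which encodes the basement membrane proteoglycan perlecan, had control values of 199, 123 and 157 CPM against knockdown values of 561, 545 and 579 CPM, a rise of 3.52-fold (edgeR adjusted p = 0.00417). SUSD5 rose from 21.6 ± 1.54 to 37.9 ± 0.761 CPM (edgeR adjusted p = 0.0168). AGRN, the gene of agrin, was at 178 ± 29.4 and 272 ± 8.23 CPM without passing (edgeR adjusted p = 0.0550). CD44, which can carry heparan or chondroitin chains, had control values of 439, 347 and 563.5 CPM around knockdown values of 446, 441 and 463 CPM.

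Of 7 linker and dermatan enzymes, 1 fell. DSEL, an epimerase that makes dermatan sulfate, fell from 12.0 ± 6.69 to 2.94 ± 0.401 CPM (4.07-fold lower, edgeR adjusted p = 0.0311). DSE, the other dermatan epimerase, had control values of 115, 31.9 and 142 CPM against knockdown values of 31.9, 28.0 and 25.9 CPM (edgeR adjusted p = 0.0644). FAM20B, the linker xylose kinase, had a log2 fold change of -0.15. Among 15 genes of sugar and sulfate supply, 1 rose: SLC35D2, a nucleotide sugar transporter, from 28.8 ± 1.76 to 50.5 ± 1.74 CPM (edgeR adjusted p = 0.0146). UGDH, which makes UDP-glucuronic acid, was at 34.7 ± 2.36 and 48.0 ± 2.15 CPM, and UGP2, which makes UDP-glucose, at a log2 fold change of -0.40. Neither passed.

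Of 18 tested genes listed under lysosomal degradation, among them SUMF1 and SUMF2, which do not themselves degrade chains, 1 rose and 1 fell. IDUA, which removes iduronic acid, was at 8.80 ± 1.38 CPM in controls and rose 4.93-fold, to 43.2 ± 0.718 CPM (edgeR adjusted p = 0.00132). SLC26A1 overlaps it on the opposite strand at under 1 CPM. GALNS, a sulfatase of chondroitin 6-sulfate and keratan sulfate, fell from 37.4 ± 5.12 to 21.8 ± 0.921 CPM (edgeR adjusted p = 0.0272). SGSH, the heparan N-sulfatase, was at 33.0 ± 1.78 and 47.3 ± 3.06 CPM (edgeR adjusted p = 0.0541). Of 21 genes of heparin-binding ligands and their receptors, 3 rose and 1 fell. FGFR2, a fibroblast growth factor receptor, rose 3.70-fold to 14.6 ± 0.823 CPM, ANTXR1 rose 1.78-fold and HBEGF, a heparin-binding ligand of the EGF receptor, rose 2.29-fold (edgeR adjusted p = 0.00826, 0.0204 and 0.0497). FGF1 fell from 5.52 ± 0.482 to 1.96 ± 0.536 CPM (edgeR adjusted p = 0.0368). None of 6 genes of syndecan partners passed with edgeR, and 1, PRKCA, had an unadjusted p under 0.05, against 26.0% of all genes tested. SDCBP, which encodes syntenin, and CASK had log2 fold changes of -0.31 and -0.61.

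Most calls among these pathway genes rested on having all 3 knockdown libraries, as did most calls over all genes. Of all genes tested in each fit, 8.31% passed in the main test. Without knockdown library 1, 2 or 3 the share was 0.311%, 0.575% and 0.44%. SUSD5, DSEL, SLC35D2, GALNS, FGFR2, ANTXR1, HBEGF and FGF1 each lost the call when any 1 knockdown library was left out, and HSPG2 lost it without knockdown library 1. Without control library 1, the calls of DSEL, ANTXR1, HBEGF and FGF1 were lost too. IDUA kept its call in every fit that left out 1 library. The direction of all 10 genes was the same in every alternative run.

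**Figure D5:**
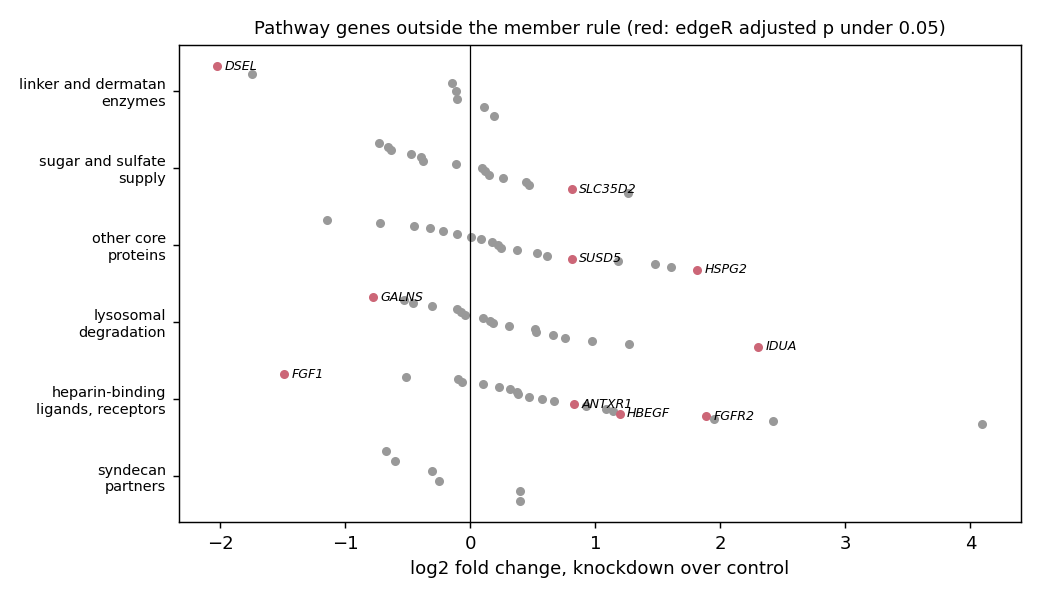
Log2 fold change of the pathway genes outside the symbol rule, 1 row per list and 1 point per gene, with genes past an edgeR adjusted p of 0.05 in red and named. IDUA, FGFR2 and HSPG2 lie farthest right among the red points, and DSEL farthest left.

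Markers of the labelled cells and of host cells were read in the same libraries. All are human genes, while the host was a mouse. Mouse reads would count only where they match human transcripts, and whether they were removed is not given. High or low values of these markers therefore do not measure host content. The background for their calls was 4.59% of all genes tested rising and 3.72% falling. Of 9 urothelial markers 7 were in the test, all under 12 CPM, and UPK1A and FOXA1 rose. Of the 7, 6 had positive log2 fold changes and 1, PPARG, a negative one (-1.116, edgeR adjusted p = 0.196). The keratin genes KRT8 and KRT18 and the vimentin gene VIM were at 80.7 CPM or more in all libraries. KRT7, of the same list, was lower, with control values of 9.197, 22.39 and 5.185 CPM. Its knockdown values were 6.651, 5.475 and 4.9 CPM, and it did not pass (edgeR adjusted p = 0.21). VIM rose with SDC3 and SULF2, 2.12-fold, from 2640 ± 642 to 5584 ± 78.2 CPM (edgeR adjusted p = 0.0206), while KRT8 and KRT18 did not pass. Of 6 smooth muscle markers 4 rose. Their summed level was 106 to 349 CPM in controls, lowest in control library 2, against 564 to 596 CPM in knockdowns. Of 5 tested fibroblast markers 1 rose, with a summed level of 19.1 to 209 CPM in controls against 158 to 159 CPM in knockdowns. Macrophage markers summed to 87.0 to 294 CPM in controls against 73.9 to 75.2 CPM in knockdowns, and none of 4 tested passed. Most of this sum was CD68, at 139 ± 101 CPM in controls against 51.8 ± 0.394 CPM in knockdowns. Of the 4, 3 had negative log2 fold changes. CSF1R lay the other way, with control counts of 9, 2 and 0 against knockdown counts of 27, 36 and 20. The defining genes CD14, CD163 and TYROBP have no row in the count table used here. Endothelial markers summed to 1.89 to 3.35 CPM in controls against 5.11 to 6.55 CPM in knockdowns, and none of 5 passed. Among them CDH5 had control counts of 11, 0 and 0 against knockdown counts of 99, 123 and 124 (edgeR adjusted p = 0.0566). Summed lymphocyte, mast cell and red cell markers each reached 2.17 CPM at most. The part of other cell types in the rise of SDC3 and SULF2 was not tested. In bulk samples fewer cells of a type and less RNA per cell cannot be told apart.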

How the data were processed

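Bulk RNA-seq was analysed in 3 control and 3 GANAB knockdown libraries. Per the labels' protocols, total RNA was taken with TRIzol and 200 ng entered library preparation. The tools DESeq2, Salmon and fastp and the build GRCh38 are named per the submitters' processing notes. Their versions, order and strand setting, and any removal of mouse reads, are not given in the sources. The authors deposited estimated counts per gene, written as whole numbers, and TPM values with equal sums per library. Every gene of the count table has at least 15 counts in all and counts in at least 3 libraries. Salmon splits reads of near-identical genes by estimate, and mouse reads that match human transcripts could be counted. Columns of the knockdown group are headed KO and were matched by group and number.

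Tests used edgeR 4.0.16 (R 4.3.3): filterByExpr, which removed 2073 genes and left 19430, TMM, the quasi-likelihood test without covariates, 2-sided, and Benjamini-Hochberg adjustment over all genes at 0.05. Standard errors came from the log2 fold change and F, and 95% intervals from these with the fit's degrees of freedom. The test was also run on simulated counts with the same dispersion per gene in both groups. That run cannot speak to the unequal spread of the groups here. Shares used TPM and an exact permutation test. Alternatives used DESeq2 1.42.0, limma 3.58.1, other scalings and filters, log2(TPM + 1) and log2(TPM + 0.1), a block and left-out libraries. Values in every library were given for members that passed and, in each role, for the member with the highest TPM and that with the smallest p; up to 3 genes with the smallest p were named per other list. Other members, with HBEGF and CDH5, were named after their values were seen. Members, roles and lists were chosen with earlier results of these data known. Gene positions are from GENCODE 29 (GRCh38). In a pairwise comparison of libraries, chi-square per degree of freedom was 5.87 to 7.4 in knockdown and 117 to 465 in control pairs, above counting noise. No libraries were merged for the main test, and this does not show that they came from separate animals.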

Additional observations from a re-analysis of the deposited data

How the results depend on the processing

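SDC3 kept its direction in all 18 alternatives and its call in 16 (log2 fold change 1.47 to 1.72), and SULF2 likewise (2.58 to 3.43); both calls were lost with the knockdown libraries summed to 1 and with limma-trend on log2(TPM + 1) without a filter. In those 2 settings 0 members were higher. The count of members higher was 4 with DESeq2, 4 with limma-voom and 8 with limma-voom and sample quality weights; the count lower was 3 with DESeq2, 2 with quality weights and 1 without the filter. Over all genes 17.5%, 12.1%, 19.1% and 6.98% passed with DESeq2, limma-voom, quality weights and no filter. Leaving out 1 library gave 2 to 9 members higher and 0 to 5 lower. Other settings gave 2 or 3 higher and 0 lower. Whether shared numbers pair the libraries is not stated in the labels. Deviations of same-numbered libraries from their group means had correlations of 0.00223, 0.0171 and 0.0218. As the knockdown libraries differed little from each other, these values cannot show whether the design was paired. With a replicate block, 2 members were higher, 0 lower, and 566 genes of all passed against 1614. By setting, the count over all genes ran from 1 (knockdown summed) and 46 (log2(TPM + 1) without a filter) to 5604 (without control library 2), and was 62, 115 and 88 without knockdown library 1, 2 or 3.

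The calls of other genes were lost in 3 (GANAB, HSPG2), 1 (IDUA), 5 (FGFR2), 8 (SUSD5, SLC35D2, GALNS), 9 (ANTXR1) and 7 (HBEGF) of 18 alternatives, 7 of 16 for DSEL and 9 of 17 for FGF1; adjusted p reached 0.318 for IDUA, 0.496 for HSPG2, 0.744 for GANAB, 0.901 for FGFR2 and 1 for the others.

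Signs turned for these genes and shares, none of which passed in the main test or in a setting with the turned sign; EXTL3 was called lower without control library 3 (edgeR adjusted p = 0.0226) and HS2ST1 lower without control library 2 (0.0449). On log2(TPM + 1), with and without a filter, and on log2(TPM + 0.1), log2 fold changes were 0.230, 0.230 and 0.238 for B3GAT3, 0.169, 0.169 and 0.185 for CHPF, 0.150, 0.150 and 0.159 for EXTL3, 0.035, 0.035 and 0.038 for FAM20B and 0.259, 0.259 and 0.279 for HS2ST1; there the median of all genes was 0.23, 0.095 and 0.28. With quality weights B3GAT3 was 0.183 and CHPF 0.177, and without control library 2 they were 0.240 and 0.323. Leaving out 1 library gave -0.219 to 0.240 for B3GAT3, -0.539 to 0.323 for CHPF and -0.044 (without control 3) to 0.236 for NDST1. Shares by CPM differed by 0.495 points for NDST1, 4.68 for SULF2 and -1.01 for glypicans (GPC1 and the syndecans are given with their TPM shares), and by TPM without 1 library by -4.634 to 0.666 for 6-O genes (highest without control 1), -11.259 to 0.295 for EXTL3 (highest without control 2), -5.552 to 1.84 for SULF2 (highest without control 2 or 3) and -0.339 to 1.75 for glypicans (lowest without control 2). The cause was not tested. Control library 3, the shallowest, limits genes under about 1 CPM.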
